A study of Homo sapiens with 36 samples.

Results

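U87 cells, scraped as cell bodies from the upper side of a porous filter, were set against the cell bodies of 5 other human cancer cell lines, and the genes with the greatest differences included the bone morphogenetic protein antagonist GREM1, the cytokine CSF3 and collagen I chains, all higher in U87, and the keratin KRT18, lower in U87. The U87 cell bodies are 3 of the 18 cell body arrays and of the 36 arrays in all, and they were taken by their labels for line and fraction. Each line gave 3 cell body arrays and 3 pseudopod arrays from material scraped off the lower side of the filter after 24 hours of culture. The medium was DMEM for U87 as well as for U251 and HT1080, whereas RPMI-1640 was used for the remaining lines, DU145, MDA231 and MDA435, so that medium and line cannot be told apart except within a medium. The labels name no transgene and no drug or gene treatment in any line. U87 and U251 are known as glioblastoma lines, HT1080 as a fibrosarcoma line, DU145 as a prostate carcinoma line and MDA231 as a breast carcinoma line. MDA435 was long used as a breast line and is now held to derive from a melanoma. A single line does not stand for its tumour type. The labels do not say whether the 3 arrays of a line came from separate cultures, so that p-values from arrays measure the spread between these arrays, which may be technical. The p-values of the fit of 6 line means measure the spread between lines. In bulk RNA, fewer cells of a type and less RNA per cell cannot be told apart.

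Glioblastoma cells are known to take on states that resemble glial precursors, neurons or mesenchymal cells. The mesenchymal state is marked by collagens, matrix enzymes, cytokines and the glycoprotein CHI3L1, and glial genes such as GFAP and SOX2 are low in it. The matrix is built from collagen trimers that are cross-linked outside the cell by lysyl oxidases and laid over fibronectin and fibrillin, and it is cut by matrix metalloproteinases, whose inhibitors are the TIMP proteins. Keratins 8 and 18 pair to form the filaments of simple epithelium, while vimentin forms those of mesenchymal cells.

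Values are given as the deposited intensity of 1 probe set per gene, in no physical unit and with nearly the same trimmed mean on every array. Differences are on the log2(intensity + 16) scale, U87 minus the mean of the 5 other line means, with a standard error (SE). A gene was called when its limma p, adjusted by Benjamini-Hochberg over 15136 genes, was under 0.05. Because a difference from a mean of lines can rest on 1 line, a gene was said to set U87 apart only when U87 differed from every one of the other lines in one direction, each time by at least 1 on that log2 scale (2-fold) and with adjusted p under 0.05. Differences of dim genes are understated on this scale, and between 41.0% and 43.5% of probe sets on the U87 arrays, against 36.4% to 42.4% on the 15 others, lay at or below an intensity of 16. Other probe sets of a gene can differ from the brightest one that was used. Probe sets of both signs were found for the called genes COL1A1, IL1RN, DNAH10, MMP2, FBN2, ACTG2, DUSP1, HBEGF, CD44, SLC1A3, TEK, B2M and CCND3, which are given below as higher. They were also found for ADGRG6, KCNK1, L1CAM, IGF1R, CDKN2A, CDKN2B, COL14A1, ME1, SOX2 and BCAN, given as lower, and for PDGFRA, INHBA, EGFR, MDM2, MMP14, NES and TAGLN.

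In 3 of the other 15 cell body arrays epithelial genes were high, unlike in the rest of their line. CDH1, the epithelial cadherin, had 1778 in MDA231 replicate 2, against 8.2 and 2.2 in replicates 1 and 3 of that line. In MDA435 it had 1044 in replicate 2 and 2463 in replicate 3, against 32.8 in replicate 1. EPCAM, another epithelial surface protein, was high in the same 3 arrays. The correlation of MDA231 replicate 2 with MDA435 replicate 3 over the tested genes was 0.919, the highest between 2 lines, while the lowest within these 2 lines were 0.935 and 0.945 and none within U87 was under 0.981. Array medians were 22.2 to 24.8 in U87 and 23.2 to 30.6 in the others. The part of these 3 arrays in a result was tested only by leaving them out: without them 3254 genes were called higher in U87 and 4262 lower, and 221 and 165 genes set U87 apart.

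The labels call the line U87 and name no tissue. Of a longer list of glial and neural genes, 8 were used as markers of astrocytes and neural cells. Their summed intensity over 8 genes was 104 to 138.2 in U87, against 123.4 to 7662.4 in the other arrays, and 5 of the 8 had a U87 mean at or below 16. Other genes of the longer list were well above background in U87, among them TUBB3, the neuronal tubulin (2280.3 in U87 against 1742), the glutamate transporter SLC1A3 (627 against 186) and the glutamine synthetase GLUL (522 against 1272). The sum over 6 fibroblast markers ran the other way, with 6982 to 11236.4 in U87 against 112.7 to 3217.4 in the others. Most of the U87 sum came from the collagen I genes COL1A1 (mean 3773) and COL1A2 (4717). FAP averaged 807 and PDGFRB 99.2 in U87, and COL3A1 and THY1 were near background there. The 6 epithelial markers summed to 98.1 to 135.4 in U87 against 1071 to 14034.9 in the others. The 5 endothelial markers summed to 530.5 to 629 in U87 against 47.8 to 406, with CDH5 and VWF, which define that cell type, near background in U87. Blood cell markers, of which 3 of 6 were measured, summed to 48.5 to 68.5 in U87 against 30.2 to 166 in the others. Melanocytic markers (5 of 6 measured) summed to 226 to 359 in U87, against 193 to 5358 elsewhere.

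In the comparison with the mean of the other lines, 2971 genes (19.6% of those tested) were called higher in U87 and 4018 (26.5%) lower. Of these, 984 (6.5%) were higher and 1257 (8.3%) lower by at least 2-fold. With the arrays set to equal medians the counts were 3620 higher and 3111 lower, so that the share of calls that were higher was 42.5% as deposited, 53.8% with equal medians and 45.3% after quantile normalization. The median of all genes lay at -0.09 as deposited and at 0.02 with equal medians, a shift of 0.10, and medians of gene groups below are to be read against it. Counts of calls in those groups are to be read against the 19.6% higher and 26.5% lower over all genes. In 726 called genes (4.8%) all 3 U87 arrays lay above the other 15, and in 849 (5.61%) all 3 lay below. U87 was set apart from each line by 226 genes that were higher (1.49%) and 197 that were lower (1.3%). By the same rule U251 was set apart by 336 higher and 163 lower genes, and MDA231 by 124 higher and 79 lower. In this setting U87 had the most genes of the 6 lines on the lower side. The other lines were not counted in any other setting. The lower count of U87 was 172 with equal medians and 165 without the 3 arrays with high CDH1. The other lines are not equally like U87: the correlation of line means with U87 over genes was 0.895 for HT1080, 0.865 for MDA231, 0.854 for U251, 0.846 for MDA435 and 0.841 for DU145. These correlations are across genes, which are not independent replicates. HT1080 also had the fewest genes at least 2-fold from U87, with 973 (6.43%) higher in U87 and 1234 (8.15%) lower, against 1328 (8.77%) and 1550 (10.2%) for U251, the other glioblastoma line. For the remaining lines these counts were 1362 (9%) and 1798 (11.9%) in DU145, 1260 (8.32%) and 1720 (11.4%) in MDA231, and 1371 (9.06%) and 1887 (12.5%) in MDA435.

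The spread between lines is a second measure of error. With each line taken as 1 value, U87 against the other 5 lines, 48 genes (0.317%) were called higher and 17 (0.112%) lower, and 938 genes had an unadjusted p under 0.05. All 65 were among the genes that set U87 apart, and 207 of the 226 higher and 182 of the 197 lower had an unadjusted p under 0.05 in that fit. Both the rule and the fit use the same line means, so this overlap is largely built in and is no separate support. A gene named below as beyond the spread between lines was called in it.

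**Figure D1:**
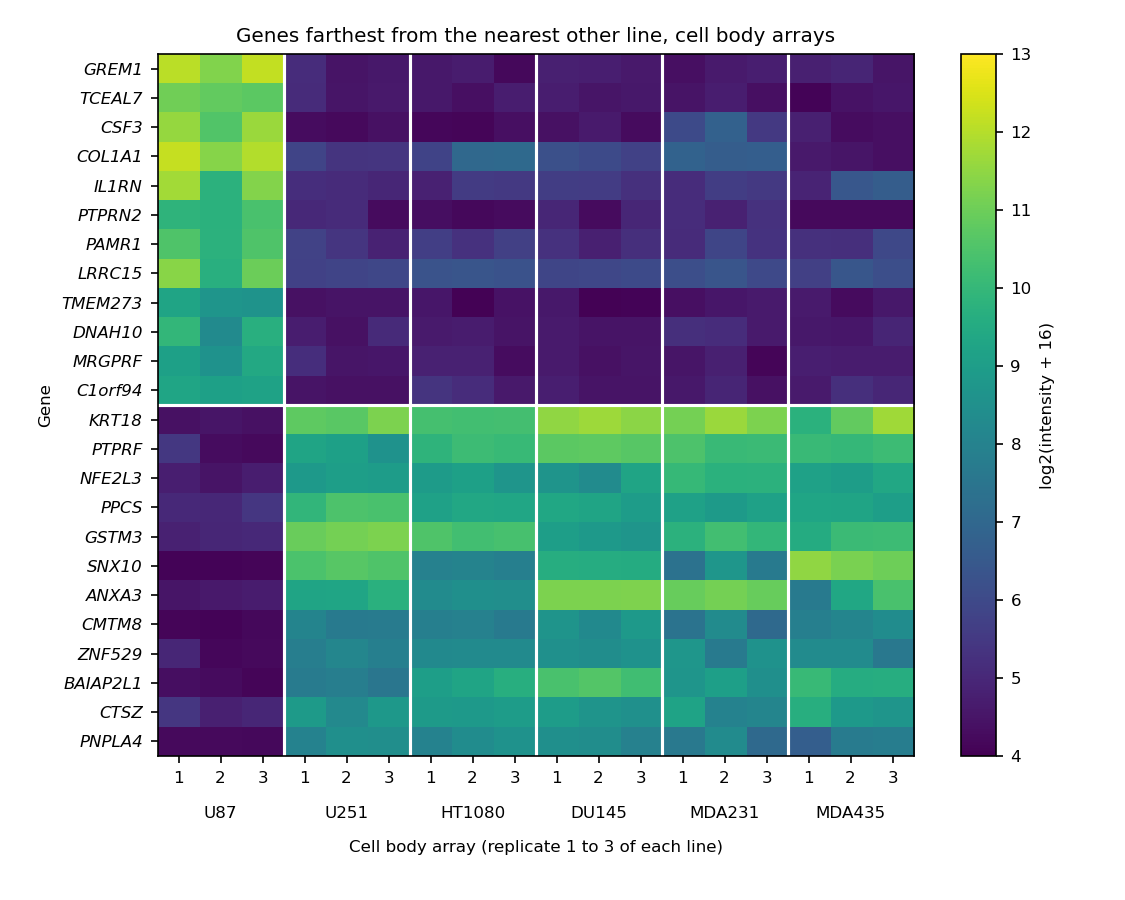
The colours give log2(intensity + 16) in the 18 cell body arrays, 3 for each of 6 lines, for the 12 higher and the 12 lower genes with the greatest difference between U87 and its nearest other line. The 3 U87 columns at the left lie above all others in the upper block and below all others in the lower block.

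GREM1 had the greatest difference. It encodes gremlin, a secreted protein that binds and blocks bone morphogenetic proteins. Its intensity was 4264, 2481 and 4599 in the 3 U87 arrays, against 2.1 to 19.4 (median 9.2) in the other 15 (log2 difference 7.18, SE 0.18, adjusted p = 1.81e-14). Every line other than U87 was near background for it. TCEAL7, a small nuclear protein related to a transcription elongation factor, had 2114, 1831 and 1681 in U87 and 0.9 to 18.6 (median 7.3) in the others (log2 difference 6.32, SE 0.14, adjusted p = 7.11e-15). PTPRN2, a protein of secretory vesicles, had 919, 852 and 1342 in U87, against 2.3 to 22.6 elsewhere (log2 difference 5.39, SE 0.18, adjusted p = 5.92e-13). A like pattern, with every other line low, was found in PAMR1 (U87 mean 1259 ± 336, SD, n = 3, against 26.9 over the 15 others), TMEM273 (455 ± 119 against 5.49), DNAH10, a dynein heavy chain (693 ± 349 against 10.5), MRGPRF (524 ± 153 against 8.99) and C1orf94 (574 ± 35 against 11.1). All 8 of these genes were beyond the spread between lines. Their adjusted p ran from 0.00156 for GREM1 to 0.00785 for PTPRN2 in the fit of 6 lines. They were picked for their distance on the same line means, so these p-values are no separate support. GREM1, TCEAL7 and PTPRN2 passed the filter for testing, a line mean of at least 24.4, only through U87. Among all 226 genes that were higher, 41 had every other line's mean at or below 16, and these too passed it only through U87.

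Among the other large rises, the secreted protease inhibitor TFPI2 had 7089, 5354 and 5517 in U87 and 0.7 to 2339.7 in the others (log2 difference 5.74, SE 0.43, adjusted p = 1.13e-08). Its difference rested on some lines more than others, since DU145 averaged 1989 and MDA231 799 while the remaining 3 lines were at 34.4 or less. BDKRB1, a receptor for bradykinin fragments, had 2357, 1914 and 2378 in U87, against 5.8 to 239 (log2 difference 5.60, SE 0.21, adjusted p = 1.90e-12), and HT1080 was the nearest line with a mean of 167. Neither gene passed the fit of 6 lines (adjusted p = 0.869 and 0.191).

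The greatest fall was in KRT18, the keratin of simple epithelium. It had 5.4, 6.9 and 5 in U87, against 839 to 3367 (median 2193) in the other 15 arrays (log2 difference -6.52, SE 0.25, adjusted p = 2.19e-12). All 5 other lines, U251 and HT1080 among them, were high, and U87 alone was near background. Its partner KRT8 had 47.5, 34.4 and 48.9 in U87 and 54.9 to 2953 (median 1693) in the others (log2 difference -4.39, SE 0.51, adjusted p = 1.94e-06), and the lowest of the other arrays, MDA435 replicate 1, came close to U87. KRT18 was beyond the spread between lines (adjusted p = 0.00785) and KRT8 was not (0.35).

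Other genes near background in U87 alone had roles in signalling, vesicle traffic and metabolism. PTPRF, a receptor phosphatase of cell contacts, had 27.6, 3.6 and 2.8 in U87, against 366 to 1743 (log2 difference -5.35, SE 0.19, adjusted p = 1.31e-12). The transcription factor NFE2L3 had 10.9, 6 and 10.5 in U87 and 308 to 1022 in the others (log2 difference -4.49, SE 0.15, adjusted p = 6.05e-13). PPCS, an enzyme of coenzyme A synthesis, had 16.9, 16.2 and 26.9 in U87, against 469 to 1427 (log2 difference -4.25, SE 0.13, adjusted p = 2.57e-13). These 3 were beyond the spread between lines (adjusted p = 0.0358, 0.0211 and 0.0373), as were CMTM8 (U87 mean 1.57, others 253), the lysosomal protease CTSZ (17.7 against 435) and the lipid hydrolase PNPLA4 (2.67 against 256). SNX10, a sorting nexin of endosomes, had 0.8, 0.8 and 1.3 in U87 and 150.2 to 2927 in the others (log2 difference -5.37, SE 0.18, adjusted p = 7.07e-13). Its line means ran up to 2444 in MDA435, with 233 in HT1080, and it did not pass the fit of 6 lines (adjusted p = 0.406). The glutathione transferase GSTM3 (14.9 in U87 against 1190.2), the annexin ANXA3 (8.23 against 1228), the actin regulator BAIAP2L1 (2.87 against 693), LRATD2 (9.53 against 895), the adhesion receptor ADGRG6 (12 against 812) and the potassium channel KCNK1 (5.87 against 537) likewise set U87 apart and did not pass that fit, with adjusted p between 0.0826 and 0.578. Of the 197 lower genes, 82 had a U87 mean at or below 16.

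Most collagen genes were higher in U87. Of 22 chains tested, 15 were called higher and 4 lower, and the median difference was 1.39, beside -0.09 for all genes. COL1A1 and COL1A2 encode the chains of type I collagen, the main fibre of skin, tendon and bone. COL1A1 had 4758, 2607 and 3953 in U87, against 4.5 to 119 (median 41.1) in the others (log2 difference 5.97, SE 0.22, adjusted p = 1.44e-12), with no other line above a mean of 91.6. COL1A2 had 5539, 3839 and 4772 in U87 and 8.9 to 1544 in the others (log2 difference 5.45, SE 0.19, adjusted p = 9.97e-13). U251 was its only other high line, with a mean of 1442 against 92.4 or less elsewhere, so U251 had 1 chain of the trimer without the other. COL6A3, a chain of the beaded type VI filaments, had 5366, 4130.1 and 4291 in U87 and a mean of 3264 in HT1080, its difference from that line being 0.48. COL6A2 (3.59), COL5A1 (2.35) and COL15A1 (1.86) also set U87 apart, and COL7A1, the anchoring fibril collagen, was above all other arrays (2.82). The 4 lower chains were COL4A1 (-1.92), COL11A1 (-1.53), COL14A1 (-1.16) and COL18A1 (-1.10). COL4A1, a chain of basement membranes, was uneven within U87, with 241, 21.9 and 182. Enzymes that modify collagen followed in part: 11 of 19 were called higher and 2 lower (median 0.56). After quantile normalization 8 were higher and 1 lower (median 0.36), and against U251 and HT1080 alone 7 and 3 (median 0.22). In pseudopods 5 were higher and 3 lower (median 0.10). The lysyl oxidases LOXL1 (919 ± 163 in U87, SD, n = 3, against 183) and LOX (2431 ± 464 against 671) were above all other arrays, although HT1080 averaged 1500.1 for LOX.

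Matrix glycoproteins were mixed. Of 28 tested, 16 were called higher and 7 lower, with a median of 1.33. Against the 2 other lines grown in the same medium, U251 and HT1080, 12 were higher and 10 lower and the median was 0.03. FBN2, a fibrillin of microfibrils, had 273, 450.3 and 277 in U87 and 2.4 to 92.8 in the others (log2 difference 2.96, SE 0.18, adjusted p = 7.99e-10) and set U87 apart. FBN1 (2.77) and FN1, which encodes fibronectin (2.65), were above all other arrays, with FN1 at 6226, 4079 and 4695 in U87 and a mean of 3689 in HT1080. MFAP2, a microfibril protein (2.47), was likewise above all others. SPARC, a collagen-binding protein, shows what a difference from a mean can hide: it averaged 4226 in U87, 4513 in U251 and 3610.2 in HT1080, against 17 in DU145 and 17.5 in MDA231. THBS1 went the other way. This gene, which encodes the adhesive glycoprotein thrombospondin, had 40.9, 45 and 70.6 in U87, against 78.9 to 1946 (median 744) in the others (log2 difference -3.03, SE 0.28, adjusted p = 1.15e-07), and it set U87 apart. Tenascin C, encoded by TNC, averaged 2778 in U87 and 2639 in U251, a difference within the spread between arrays of the 2 glioblastoma lines.

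The 2 nidogens, which link laminin to type IV collagen in basement membranes, moved in opposite directions. NID2 had 1676, 1387 and 1689 in U87, against 1.3 to 238 (median 27.8) in the others (log2 difference 5.00, SE 0.23, adjusted p = 2.83e-11). NID1 averaged 0.5 in U87 and 0.8 in MDA231, against 626 in U251 and 509.8 in HT1080 (log2 difference -3.00, SE 0.10, adjusted p = 7.67e-13). Of 12 genes for laminins and the basement membrane, 5 were called higher and 4 lower (median -0.04). AGRN, which encodes the proteoglycan agrin, fell (-1.87), but with probe sets marked as matching several transcripts left out its difference was -0.01 (adjusted p = 0.98), so its call rests on 1 kind of probe set.

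Genes for matrix proteases and their inhibitors were higher in 16 of 27 cases and lower in 2, with a median of 1.05. MMP3, stromelysin, had 4064, 2174 and 3972 in U87, against 13.6 to 476 (median 46.1) in the others (log2 difference 5.27, SE 0.36, adjusted p = 2.63e-09). MMP2, a gelatinase, had 3031, 2068 and 2371 in U87, and HT1080 was the nearest line with a mean of 1340.5. CTSK, a protease that cuts collagen in bone, had 2587, 1458 and 2103 in U87 and 48.9 to 209.9 in the others (log2 difference 4.02, SE 0.19, adjusted p = 3.19e-11). ADAMTS5, which cuts the cartilage proteoglycan aggrecan, had 670.3, 209 and 689 in U87, against 4.6 to 21.9 (log2 difference 3.94, SE 0.24, adjusted p = 6.46e-10). CTSK and ADAMTS5 were beyond the spread between lines (adjusted p = 0.0306 and 0.00712). The inhibitors were not alike: TIMP4 (3.32) set U87 apart, TIMP1 (1.44) was above all other arrays, TIMP2 differed by -0.06 and was not called, and TIMP3 fell by 2.29 on the log2 scale. The urokinase PLAU and its receptor PLAUR were above all other arrays, by 1.97 and 1.46. MMP1 (0.29), MMP9 (0.00) and MMP14 (0.42) were not called.

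**Figure D2:**
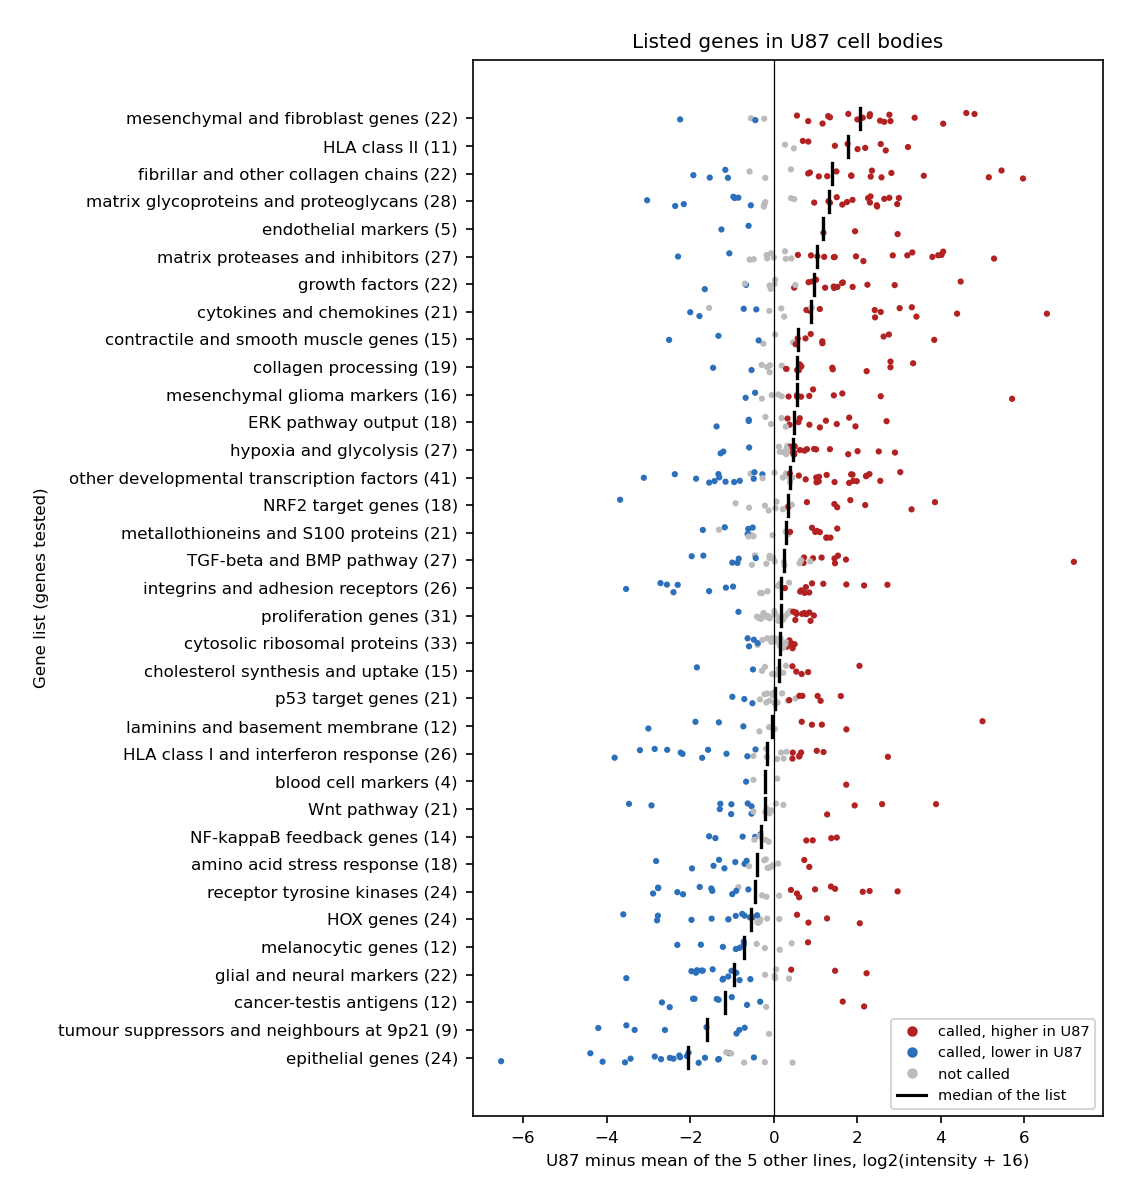
Each point is 1 tested gene of 35 lists (number tested in brackets), placed by the difference of U87 from the mean of the 5 other lines on the log2(intensity + 16) scale, and each bar is the median of the list. Mesenchymal, HLA class II, collagen, matrix and endothelial lists have medians above 1, and epithelial, tumour suppressor and cancer-testis lists have medians below -1.

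Genes that mark mesenchymal cells and fibroblasts had the highest median of the 35 lists, 2.07, with 18 of 22 called higher and 2 lower. Against U251 and HT1080 alone the median was 0.93, with 15 higher and 3 lower. FAP, a surface protease of activated fibroblasts, had 806, 453 and 1163 in U87, against 2.6 to 100.3 (median 4.1) in the others (log2 difference 4.81, SE 0.20, adjusted p = 6.31e-12). The only other line with FAP above background was MDA435, with a mean of 78.3. LRRC15, a membrane protein of fibroblasts that respond to transforming growth factor beta, had 2704, 796 and 1991 in U87, against 36.5 to 68.3 in the others (log2 difference 4.61, SE 0.23, adjusted p = 6.70e-11), and it was beyond the spread between lines (adjusted p = 0.00592). The transcription factor SNAI2, which represses epithelial genes, had 2316, 2190.0 and 2192 in U87 and 106 to 1093 in the others (log2 difference 2.55, SE 0.17, adjusted p = 2.59e-09). PRRX1 averaged 1231 in U87 and 1142 in MDA435, and TWIST1 averaged 279.6 in U87 and 212 in U251, so neither transcription factor was high in U87 alone. The median of TWIST1 over the 15 other arrays was 133. The exceptions were THY1, a surface protein of fibroblasts (8.6 in U87 against 1299.6 in U251, -2.24), and SNAI1 (-0.44). VIM was high in all arrays, 5825, 4526 and 4581 in U87 against 2673 to 5550.1, and its difference of 0.56 was 0.18 after quantile normalization (adjusted p = 0.082). The neural cadherin CDH2 averaged 750.2 in U87, 1349 in U251, 1159.9 in HT1080 and 794 in MDA435, against 2.83 in DU145 and 6.97 in MDA231. Its call as higher (1.79) turned to -0.71 (adjusted p = 9.94e-04) against U251 and HT1080 alone.

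Smooth muscle genes were split. ACTA2, smooth muscle actin, had 3015, 2178 and 2482 in U87, against 53.1 to 726 (median 107) in the others (log2 difference 3.84, SE 0.17, adjusted p = 1.05e-11). CNN1, the calponin of smooth muscle (2.76), and ACTG2, the actin of enteric muscle (2.63), also set U87 apart. MYH10, a non-muscle myosin, fell by 2.50 and CNN3, the calponin of non-muscle cells, fell by 1.32 on the log2 scale, both with all 3 U87 arrays below the other 15. Over 15 genes tested, 9 were called higher and 3 lower (median 0.57). TAGLN, another smooth muscle marker, was not called from its brightest probe set (-0.25), while its other 2 probe sets were higher, by up to 1.42.

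The second greatest rise was that of a cytokine gene. CSF3, granulocyte colony-stimulating factor, had 3039.5, 1479 and 3166 in U87, against 1.3 to 95.3 (median 4.8) in the others (log2 difference 6.54, SE 0.23, adjusted p = 7.67e-13). It was beyond the spread between lines (adjusted p = 0.0325), and the highest of the others was MDA231 replicate 2, 1 of the 3 arrays with high CDH1. IL1RN, which encodes the antagonist of the interleukin 1 receptor, had 3394, 868 and 2569.7 in U87 and 12.4 to 84.6 in the others (log2 difference 5.49, SE 0.34, adjusted p = 9.15e-10). IL1B, interleukin 1 beta itself, had 6897, 4084 and 5702 in U87 and was also high in HT1080, with a mean of 3428. IL6 had 3538, 559.9 and 2432 in U87, against 12.9 to 543 (median 200.4) in the others (log2 difference 3.31, SE 0.37, adjusted p = 1.54e-06), so that replicate 2 lay just above the highest DU145 array. IL11, of the same family, had 2882, 333 and 2002 in U87, against 4.9 to 657 (log2 difference 3.02, SE 0.41, adjusted p = 1.23e-05), and here replicate 2 fell within the range of the others. LIF (2.56) and TSLP (2.43) set U87 apart, and CXCL8, a neutrophil chemokine with 5548, 3254 and 4698 in U87, was above all other arrays while DU145 averaged 2745. CCL2, a monocyte chemokine, averaged 5.1 in U87, 2252 in U251 and 2.2 in DU145, with 69.9 in HT1080 and 56 in MDA435 (-2.00). Over the list, 11 of 21 were called higher and 4 lower, with a median of 0.90. Of 14 feedback genes of the NF-kappaB pathway, which is known to induce several of these cytokines, 4 were called higher and 5 lower (median -0.29), with IER3 (1.51) above all other arrays and ICAM1 (-1.55) the lowest. Over all genes, 19.6% were called higher and 26.5% lower.

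**Figure D3:**
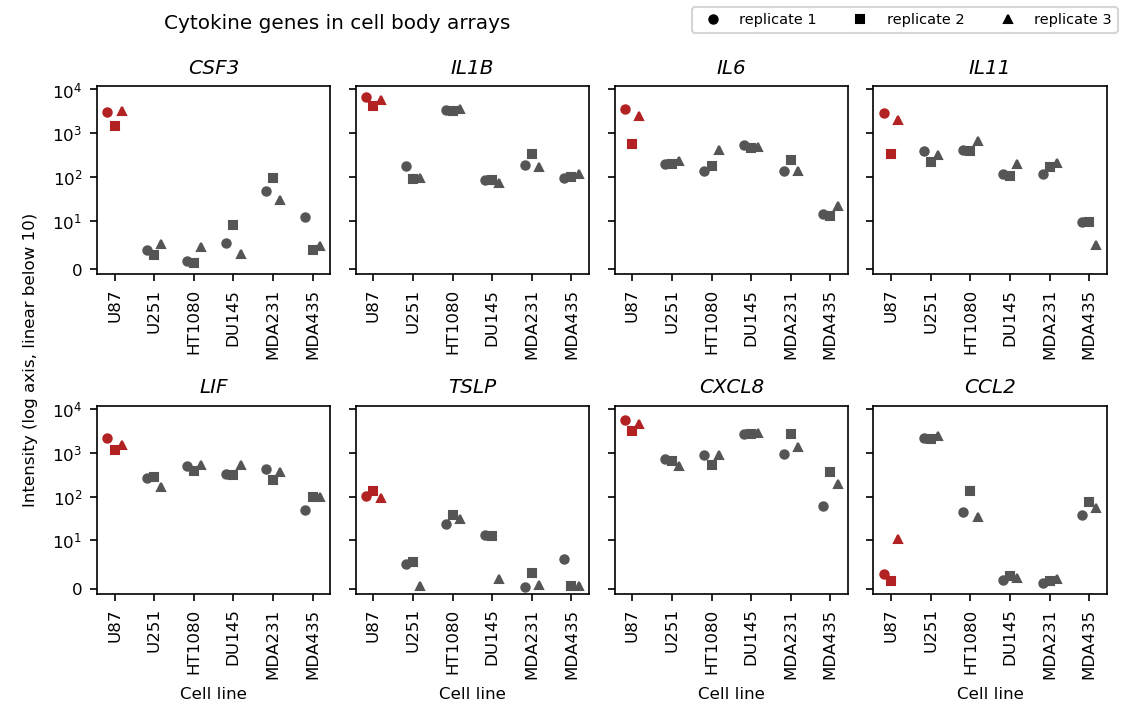
Intensity (log axis, linear below 10) of 8 cytokine genes in the cell body arrays of each line, with U87 in red and replicates 1, 2 and 3 as circles, squares and triangles. U87 replicate 2 is the lowest of the 3 U87 arrays in CSF3, IL1B, IL6, IL11, LIF and CXCL8, and CCL2 is near background in U87 and high in U251.

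The U87 arrays were about equally alike by correlation, and where genes differed between them replicate 2 was most often the lowest. Over all tested genes the median SD of the 3 U87 arrays was 0.20 on the log2 scale, 806 genes had an SD over 0.5 and 28 had one over 1. Of the 806, replicate 2 was the lowest array in 418, replicate 3 in 218 and replicate 1 in 170. Of the 28, replicate 2 was the lowest array in 23, replicate 3 in 4 and replicate 1 in 1. They included NR4A2, an immediate early nuclear receptor (1068, 100.3 and 1273), INHBA, a subunit of activin (409, 30.2 and 399.5), TREM1 (519.6, 34.2 and 273), IL11, IL6, CCL20, IL1RN, the receptor IL13RA2 (813, 157 and 972), the plasminogen activator PLAT (1060.5, 262 and 1081) and FST, the activin-binding protein follistatin (891, 234.5 and 814). In 21 of the 23 genes the lowest of the 3 U87 pseudopod arrays was replicate 1. No label sets replicate 2 apart, and the part of culture, RNA or labelling in this spread was not tested. Without replicate 2, the cytokine list still had 11 genes called higher, against 3 lower, with a median of 1.17.

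Growth factor genes were called higher in 14 of 22 cases and lower in 2 (median 0.97). BDNF, a factor for neurons, had 1046, 769.5 and 1335 in U87, against 11.1 to 359.7 (median 133) in the others (log2 difference 2.90, SE 0.27, adjusted p = 1.87e-07), and set U87 apart. EREG, a ligand of the epidermal growth factor receptor, had 3598, 2826 and 4058 in U87 and was also high in DU145, with a mean of 2224, while HT1080 was at 1.8. HBEGF, a ligand of the same receptor (1.66), VEGFC (2.24) and ANGPT1 (1.63), both factors for vessels, were above all other arrays. EGFR itself did not differ by the test (-0.17, adjusted p = 0.536), with 370.5, 329.5 and 406 in U87 inside the range of 79.3 to 1406 elsewhere.

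Of 24 receptor tyrosine kinases, 11 were called lower and 9 higher (median -0.44), and over all genes lower calls outnumbered higher ones too (26.5% against 19.6%). KDR, a receptor of vascular endothelial growth factor known from endothelium, had 298, 369 and 238 in U87, against 1.8 to 144 (median 11.8) in the others (log2 difference 2.97, SE 0.25, adjusted p = 5.61e-08), with PECAM1 and TEK of the endothelial markers also called higher (1.19 and 1.95) and CDH5 and VWF near background. Of the 5 endothelial genes tested the other 2 were called lower, ROBO4 (-1.25) and TIE1 (-0.60). PDGFRB was above all other arrays (2.13) at the low level of 99.2 ± 32.9 (SD, n = 3). PDGFRA averaged 165 in U87 and 3025 in U251. ROR1, a receptor for Wnt ligands, was near background in U87 (7.97 against 257, -2.89), as was MERTK (6.07 against 120.1, -2.17), and IGF1R, the receptor of insulin-like growth factor, was lower than in every other line (107 against 432, -1.77). MET, the receptor of hepatocyte growth factor, was high throughout, with 2827, 2519 and 2619 in U87 and 838 to 2592 in the others (0.56). Genes that report output of the ERK pathway below these receptors were called higher in 11 of 18 cases and lower in 3 (median 0.49), among them the phosphatase DUSP1 (1.96) and the inhibitor SPRY2 (1.10), both above all other arrays.

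Apart from GREM1, genes of the TGF-beta and BMP pathway showed smaller differences, with 9 of 27 called higher and 6 lower (median 0.24). Over all genes these shares were 19.6% and 26.5%. The receptor TGFBR1 was above all other arrays (0.94), but its difference was 0.23 and not called without the marked probe sets, and 0.54 and not called in the pseudopods. BMP4, a ligand that gremlin binds, was near background in U87 (1.7) and also in U251 (4.03) and HT1080 (4). Its call (-1.96, adjusted p = 0.0261) was lost without the MDA231 arrays (-1.14, adjusted p = 0.21) and against U251 and HT1080 alone (-0.18, adjusted p = 0.187). The call was also lost without any one U87 array (adjusted p 0.0764 to 0.0792) and with lines as units. In the Wnt pathway 4 of 21 genes were called higher and 9 lower (median -0.20), beside 19.6% and 26.5% of all genes. The ligand WNT5A had 4429.5, 2599.9 and 4155 in U87, and HT1080 was close, with a mean of 2633. The secreted antagonists were low: DKK1 had 124, 128 and 190.0 in U87, against 47.8 to 4134 elsewhere (log2 difference -2.93, SE 0.15, adjusted p = 5.81e-11), and HT1080 was lower still at 58.5. SFRP1 had 37, 14.9 and 12.9 in U87, against 41.6 to 1519.8 in the others (log2 difference -3.46, SE 0.23, adjusted p = 1.91e-09), and the transcription factor TCF7L2 was below all other arrays (-1.28). WNT7B (1.94) was the only gene of this list that set U87 apart.

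Epithelial genes had the lowest median of the 35 lists, -2.06, with 19 of 24 called lower and 0 higher. With equal array medians 18 were lower and 1 higher, and without the 3 arrays with high CDH1 20 were lower and 1 higher (median -1.70). Against U251 and HT1080 alone, the median was -0.48, with 13 lower and 3 higher. Besides KRT18 and KRT8, 2 genes of cell junctions set U87 apart. The desmosomal protein DSP had 13.6, 8.9 and 6.3 in U87, against 11.9 to 1677 (median 355) in the others (log2 difference -4.09, SE 0.44, adjusted p = 8.58e-07), the lowest of those being under the highest U87 array. JUP, plakoglobin, had 4.6, 3.5 and 2.5 in U87 and 6.5 to 414 in the others (log2 difference -2.49, SE 0.38, adjusted p = 4.71e-05). CDH1 was near background in U87 (1.4, 0.8 and 0.4) and also in U251 and HT1080, with means of 5.13 and 0.8, against 1705 in DU145, and its fall was called (-2.85, adjusted p = 0.0365). That call was fragile: it did not hold without DU145 (-1.92, adjusted p = 0.19), against U251 and HT1080 alone (-0.16, adjusted p = 0.247), in pseudopods (-2.52, adjusted p = 0.0535), without any one U87 array (adjusted p 0.0974 to 0.101), without MDA435 replicate 2 (adjusted p = 0.0514), with a pseudocount of 64, with no filter, with the mean of probe sets or with lines as units. SPINT2 and ESRP1, a protease inhibitor and a splicing factor of epithelium, were likewise low in U87 (4.13 and 6.37), U251 (3.7 and 14.7) and HT1080 (1.8 and 21.7).

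Of 26 adhesion receptors, 11 were called higher and 8 lower (median 0.18), beside 19.6% and 26.5% of all genes. Against U251 and HT1080 alone 6 were higher and 10 lower (median -0.24). In pseudopods 6 were higher and 9 lower (median -0.31). ITGA6, an integrin chain that binds laminin, had 142, 157 and 159 in U87, against 1215 to 2841 in the others (log2 difference -3.53, SE 0.13, adjusted p = 1.10e-12), and it was beyond the spread between lines (adjusted p = 0.0355). Its partner ITGB4 was near background in U87 (1.67) and varied between 11 in HT1080 and 432 in U251. L1CAM, a neural adhesion protein, had 2.5, 2.4 and 4.2 in U87, against 30.2 to 592 (log2 difference -2.71, SE 0.27, adjusted p = 3.68e-07). The fibronectin receptor chains ITGA5 (2.16) and ITGB1 (0.63) were above all other arrays. CD44, the hyaluronan receptor, averaged 4397 in U87 and 4557 in U251, and its call as higher (0.66) did not hold without DU145 (0.33, adjusted p = 0.077).

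Glial and neural genes were lower in 14 of 22 cases and higher in 3 (median -0.95). GFAP, the astrocyte filament protein, had 13.2, 5.8 and 2.4 in U87 and 3.7 to 189.9 (median 37.4) in the others, with U251 at a mean of 149 (log2 difference -1.21, SE 0.20, adjusted p = 8.27e-05). SOX2, a factor of neural stem cells, averaged 13.6 in U87 and 1879 in U251, against 7.73 in HT1080. S100B averaged 1.17 in U87, 29.6 in U251 and 2128 in MDA435. GPM6B, a neural membrane protein, averaged 2.83 in U87, 3474 in U251 and 2472 in MDA435 (log2 difference -3.53, SE 0.22, adjusted p = 9.33e-10). BCAN, a brain proteoglycan, was the only member with all U87 arrays below the others, at 53.4 against 86.5 (-0.56), and was not called in pseudopods. The glutamate transporter SLC1A3 went the other way, averaging 627 in U87 and 487 in U251 (log2 difference 2.22, SE 0.41, adjusted p = 2.99e-04). NES, the neural stem cell filament, averaged 178 in U87 and 2057 in U251 and did not differ from the mean of the lines by the test (0.02, adjusted p = 0.964), and OLIG2 did not either (-0.21, adjusted p = 0.216). Both signs turn in other settings.

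Of 16 genes used as markers of the mesenchymal glioma state, 10 were called higher in U87 and 2 lower (median 0.56). After quantile normalization 7 were higher and 1 lower (median 0.34). Against U251 and HT1080 alone 7 were higher and 3 lower (median 0.31). CHI3L1 had 3746, 1586 and 1957 in U87, against 0.4 to 614 (median 2) in the others (log2 difference 5.71, SE 0.32, adjusted p = 2.78e-10). HT1080 averaged 439.8 and U251 57.9 for it, and the remaining lines were at 4.4 or less. STAT3, a transcription factor of that state, was lower (-0.67), as was RELB (-0.45).

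Genes of HLA class II presentation were called higher in 9 of 11 cases and lower in 0 (median 1.77). HLA-DPA1 had 3787, 2286 and 2619.9 in U87, against 14.8 to 2056 (median 750.1) in the others (log2 difference 2.68, SE 0.23, adjusted p = 5.62e-08). The class II genes were not particular to U87 among the lines: HLA-DRA averaged 893 in U87, 3263 in MDA435 and 1219.6 in MDA231, against 7.63 in U251. CTSS, a protease of class II loading, was the only gene of the list that set U87 apart, with 606, 380.2 and 529 in U87 against 46.6 to 189 (log2 difference 2.19, SE 0.25, adjusted p = 1.44e-06). In the pseudopods 5 of the 11 were called higher (median 0.84). HLA genes share sequence, so probe sets of one may read another.

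Several genes induced by interferon were lower in U87. IFITM1, a membrane protein that hinders virus entry, had 33, 12.5 and 27.6 in U87, against 65.8 to 1272 (median 564) in the others (log2 difference -3.81, SE 0.34, adjusted p = 8.13e-08). OAS1, which makes the messenger for an antiviral nuclease, had 6.8, 10.5 and 6.1 in U87 and 34.1 to 339 in the others (log2 difference -2.55, SE 0.38, adjusted p = 3.55e-05). These 2 set U87 apart. IFIT1 (-2.85), IFIT2 (-2.23) and MX1 (-2.18) were below all other arrays, with HT1080 the nearest line. Others were higher: IFI44L averaged 307 in U87, 646 in U251 and 19.8 or less elsewhere, and IFI44 averaged 1004 in U87 against 669 over the others (1.19). Class I genes HLA-B (0.62), HLA-C (0.61) and B2M (0.46) were called higher by small amounts. Over the joint list of class I and interferon genes, 8 of 26 were called higher and 11 lower (median -0.17). After quantile normalization 3 of the 26 were higher and 10 lower.

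A list of 9 genes joined those at the chromosome band 9p21, which is often deleted in glioblastoma, with tumour suppressors and a further gene elsewhere, and 8 of the 9 were called lower and 0 higher (median -1.61). The 6 at 9p21 were KLHL9, FOCAD, MTAP, CDKN2A, CDKN2B (-0.82) and HACD4 (-0.69), and each was called lower. Of the 3 on other chromosomes FAF1 and RB1 (-0.89) were called lower and NF1 (-0.11) was not called. KLHL9, a ubiquitin ligase adaptor, had 11.7, 4.9 and 15.4 in U87, against 5.1 to 1109 (median 771) in the others (log2 difference -4.20, SE 0.59, adjusted p = 1.73e-05), an MDA231 array at 5.1 lying within the U87 range. FOCAD averaged 2.3 in U87 and 250.3 over the others, with MDA231 at 87. MTAP, a salvage enzyme, was near background in U87 (7.8, 3.7 and 3.1) and in HT1080 (mean 4.63), and CDKN2A, the cell cycle inhibitor, averaged 26.4 in U87, 31.3 in U251 and 22.5 in HT1080, against 1354 in DU145. FAF1 averaged 12.8 in U87 and 19.4 in U251, against 428 in HT1080. No copy number was measured. Of 21 targets of the p53 protein, 6 were called higher and 3 lower (median 0.02), but 3 higher and 8 lower against U251 and HT1080 alone (median -0.28), and 3 and 6 without MDA231 and MDA435. Over all genes, 19.6% were called higher and 26.5% lower against the 5 lines. The inhibitor CDKN1A averaged 1034 in U87 and 1298 in HT1080. MDM2, which targets p53 for decay, was not called (-0.33, adjusted p = 0.128) but was lower against U251 and HT1080 alone (-0.94, adjusted p = 6.96e-04).

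Germline and lineage genes outside the brain were mostly low. Of 12 cancer-testis genes, 2 were called higher and 9 lower (median -1.16): CTAG2 averaged 1.67 in U87 and was as low in U251, DU145 and MDA231, against 2492 in HT1080. Of 12 melanocytic genes, 7 were lower and 1 higher (median -0.72), ERBB3 being at 7.93 in U87 and 7.33 in HT1080 against 1155 in MDA435. Against U251 and HT1080 alone the melanocytic median was -0.02.

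Of 24 HOX genes, which give cells their place along the body axis, 4 were called higher and 12 lower (median -0.54). HOXB7 had 47.6, 43.2 and 41.1 in U87, against 68.6 to 1383 (median 978) in the others (log2 difference -3.60, SE 0.44, adjusted p = 3.55e-06), and HOXB9 had 24.6, 26.6 and 21.8 in U87 against 90.3 to 494 (log2 difference -2.77, SE 0.25, adjusted p = 1.24e-07). Both set U87 apart, while HOXB2 was higher (2.06), so that genes of 1 cluster differed in sign. Among 41 other developmental transcription factors, 20 were called higher and 13 lower (median 0.39). TBX15, a factor of limb and skin mesenchyme, had 271, 285 and 278 in U87, against 9.6 to 45.9 in the others (log2 difference 3.03, SE 0.16, adjusted p = 1.58e-10), and was beyond the spread between lines (adjusted p = 0.0299). IRX3 also set U87 apart (1.99), and TFAP2C, a factor of epithelium and trophoblast, was lower than in every other line (62.4 against 750.2, -3.11).

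Of 27 genes for hypoxia and glycolysis, 17 were called higher and 3 lower (median 0.47), but 9 higher and 3 lower after quantile normalization (median 0.27). The carbonic anhydrase CA12 had 2433, 1515 and 1367 in U87, against 38.2 to 666 (log2 difference 2.90, SE 0.28, adjusted p = 2.75e-07), and set U87 apart, while the glucose transporter SLC2A1 was below all other arrays (-1.27). Of 18 targets of the NRF2 factor, 8 were called higher and 1 lower (median 0.34). AKR1C2, a reductase of steroids and carbonyls, had 3221, 3934 and 3282 in U87, against 27.5 to 1096 in the others (3.86). Its relative AKR1C1 had 3557, 3852 and 3413 in U87, against 55.1 to 1557 (3.30), and their sequences are so alike that one probe set may read both. ME1, the cytosolic malic enzyme, averaged 27.4 in U87 and 48.3 in U251, against 1803 in HT1080 (-3.68). Genes of the amino acid stress response were called lower in 8 of 18 cases and higher in 2 (median -0.41). The regulator TRIB3 had 112, 78.3 and 109.5 in U87, against 345 to 1687 (log2 difference -2.81, SE 0.16, adjusted p = 3.10e-10), and with the transporter SLC7A5 (-1.96) and the serine enzyme PSAT1 (-1.31) it set U87 apart, while the asparagine synthetase ASNS (-1.44) was below all other arrays. Against U251 and HT1080, which shared the medium of U87, 12 of the 18 were called lower and 1 higher (median -0.62).

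Of 15 cholesterol genes, 5 were called higher and 2 lower (median 0.12), with INSIG1, a brake on cholesterol synthesis, higher than in every other line (2.05) and the sterol desaturase SC5D below all other arrays (-1.84). Among the metallothioneins, which bind zinc and copper, MT1G (1.52), MT1X (1.36), MT1H (1.27), MT1F (1.26) and MT2A (1.03) were each above all other arrays, and since they are near-identical in sequence a probe set can read more than one. Over that list with the S100 proteins, 9 of 21 were called higher and 5 lower (median 0.29). Of 31 proliferation genes, 10 were called higher and 1 lower (median 0.16), none with a difference above 0.96 (CCND3). Ribosomal protein genes have no settled direction, since 8 of 33 were called higher and 4 lower as deposited, 12 and 3 with equal medians, and 0 and 13 after quantile normalization. Of the reference genes ACTB and GAPDH, ACTB differed by 0.34 as deposited and by -0.08 after quantile normalization, and GAPDH by 0.49 as deposited. The GAPDH call was lost after quantile normalization (0.11, adjusted p = 0.306), against U251 and HT1080 alone (0.32), without MDA231 and MDA435 (0.37), without U87 replicate 1 (0.36), in pseudopods (0.41) and with lines as units.

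Zinc finger genes were frequent among the lower genes. Genes with a symbol of ZNF and a number mostly encode KRAB and C2H2 zinc finger proteins, many of which silence transposons. This group was picked after its values had been seen, so its counts are a description without a test. Of 419 such genes tested, 84 (20%) had all 3 U87 arrays below the other 15, against 5.63% of all genes. In the other 5 lines the share of ZNF genes below all other arrays was 0.955% to 3.34%, and the share of all genes 2.29% to 5.21%. In U87, 204 of the 419 were called lower and 33 higher, beside 26.5% and 19.6% of all genes. Their median was -0.35, against -0.09 for all genes. ZNF genes made up 34 of the 197 genes (17.3%) that were lower in U87 than in each line, and 3 of the 226 that were higher. Those 34 were 8.11% of the ZNF genes tested, against 1.3% of all genes. The ZNF shares were counted on the deposited scale only. Array medians on it were 22.2 to 24.8 in U87 and 23.2 to 30.6 in the others. ZNF529 had 15.6, 1.9 and 2.9 in U87, against 178 to 410.0 (median 304) in the others (log2 difference -3.78, SE 0.20, adjusted p = 1.38e-10). ZNF83 had 0.4, 0.1 and 0.8 in U87 and 99.7 to 453 in the others (log2 difference -3.98, SE 0.15, adjusted p = 1.89e-12), and ZNF544 had 22.3, 8.4 and 8.8 against 202 to 392 (log2 difference -3.50, SE 0.13, adjusted p = 1.89e-12). ZNF420, ZNF468, ZNF140, ZNF850 and ZNF567 were likewise low. Their U87 means were 1.9, 6.53, 1.43, 2.47 and 6.77, against 174, 308, 166, 158 and 204 over the other arrays. Of the lower genes named here ZNF140 lies on chromosome 12 and the rest on chromosome 19, which holds large clusters of the family. Of the 170 measured ZNF genes on chromosome 19, 40 (23.5%) were below all other arrays, and of the 182 on other chromosomes 29 (15.9%) were, the remaining 67 having no position in the promoter table. The 3 that were higher were ZNF503 (1.53), ZNF541 (1.29) and ZNF385D (1.97).

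**Figure D4:**
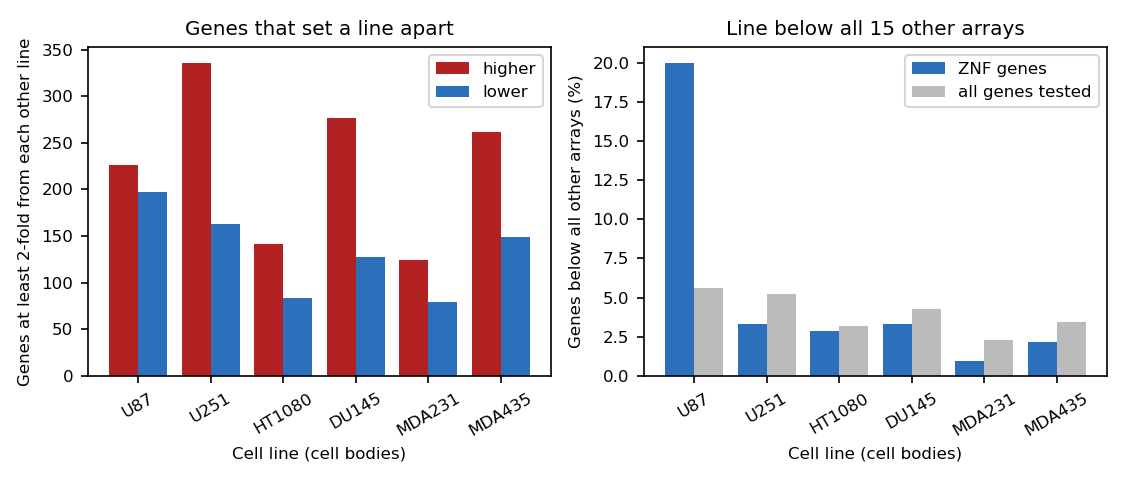
Left, the number of genes that set each of the 6 lines apart in its cell bodies, higher in red and lower in blue. Right, the share (%) of the 419 ZNF genes (blue) and of all 15136 genes (grey) in which all 3 arrays of a line lie below the other 15. U87 has 20% for ZNF genes and no other line exceeds 3.34%.

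The promoters of the genes that were higher and lower in U87 had different median counts of CpG, the dinucleotide that is methylated in silenced promoters. Promoters are RefSeq windows of GRCh38.p14 from 250 bases before to 50 after the start of a gene, and CG on one strand is CG on the other. Of the 226 higher genes 159 had a window, and its median CpG count was 18, with 5 or fewer CpG in 22.0%. Of the 197 lower genes 160 had a window, with a median of 26 and 6.25% at 5 or fewer. Over all tested genes with a window, 12088 in number, the median was 25 and the share at 5 or fewer was 12.2%. The ZNF genes among the lower ones (31 with a window) had a median of 23. No test was made of these counts and no methylation was measured. The 4 windows below show the range, with GREM1 (42 CpG) and IL1RN (2 CpG) from the genes that were low in every other line, and PTPRF (37 CpG) and ZNF529 (28 CpG) from those near background in U87 alone. They lie at chr15:32717754-32718053 (GREM1, plus strand), chr2:113117721-113118020 (IL1RN, plus strand), chr1:43530633-43530932 (PTPRF, plus strand) and chr19:36605208-36605507 (ZNF529, minus strand). Sequences are written from 5′ to 3′ on the strand of the gene, in lower case with each CG in capitals. A cell line may use another start than the one RefSeq gives.
GREM1: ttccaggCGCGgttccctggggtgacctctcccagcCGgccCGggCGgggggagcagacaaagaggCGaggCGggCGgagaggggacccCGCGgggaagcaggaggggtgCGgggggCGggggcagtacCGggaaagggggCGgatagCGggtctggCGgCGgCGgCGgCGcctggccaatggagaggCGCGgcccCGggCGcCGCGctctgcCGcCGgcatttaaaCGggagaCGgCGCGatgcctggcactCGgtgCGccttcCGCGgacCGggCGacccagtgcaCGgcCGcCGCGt
IL1RN: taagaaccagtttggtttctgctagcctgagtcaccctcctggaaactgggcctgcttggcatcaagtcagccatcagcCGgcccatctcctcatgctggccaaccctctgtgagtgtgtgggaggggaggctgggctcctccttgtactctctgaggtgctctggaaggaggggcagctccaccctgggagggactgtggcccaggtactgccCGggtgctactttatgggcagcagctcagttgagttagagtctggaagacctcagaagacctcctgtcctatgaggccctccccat
PTPRF: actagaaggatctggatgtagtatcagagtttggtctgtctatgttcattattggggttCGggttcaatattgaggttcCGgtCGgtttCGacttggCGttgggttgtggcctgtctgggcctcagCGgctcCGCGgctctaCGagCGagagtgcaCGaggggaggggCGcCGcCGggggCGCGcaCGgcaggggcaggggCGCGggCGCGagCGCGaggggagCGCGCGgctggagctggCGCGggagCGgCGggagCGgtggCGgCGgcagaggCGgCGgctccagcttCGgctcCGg
ZNF529: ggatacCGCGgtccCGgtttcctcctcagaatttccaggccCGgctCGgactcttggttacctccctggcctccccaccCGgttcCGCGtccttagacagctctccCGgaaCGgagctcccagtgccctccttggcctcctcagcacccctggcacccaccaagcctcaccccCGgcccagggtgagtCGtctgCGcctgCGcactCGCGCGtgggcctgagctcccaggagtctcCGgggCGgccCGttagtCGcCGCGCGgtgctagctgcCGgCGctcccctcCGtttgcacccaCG
CG runs through the whole GREM1 window, is absent from the first (5′) stretch of the PTPRF window and is nearly absent from the IL1RN window.

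The pseudopod arrays, from the same lines and possibly the same cultures, gave a second measurement. The rule that set U87 apart in cell bodies did not use them, but probe sets were chosen by their mean over all 36 arrays. Agreement between fractions of the same lines is no test in other material. In the pseudopod arrays 2772 genes (18.3%) were called higher in U87 and 3675 (24.3%) lower, and 216 (1.43%) and 197 (1.3%) set U87 apart. Of the 226 genes higher in U87 cell bodies, 221 were called higher in pseudopods and 178 met the full rule there. Of the 197 lower genes, 196 were called lower and 141 met it. CDH1 was high in 3 pseudopod arrays of the same lines (MDA231 replicate 3 and MDA435 replicates 1 and 2), so these comparisons share that limit. GREM1 had 1378, 1619 and 2608 in the U87 pseudopods, and its difference there was 6.15. KRT18 had 7, 6.1 and 6.6, a difference of -6.83.

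The difference of U87 from the other lines changed with the fraction in few genes. Tested as an interaction over all 36 arrays, it was called in 17 of 15136 genes, in 14 of them by at least 2-fold. Of the genes named here 2 were among them. For FAP the difference was 4.81 in cell bodies and 2.80 in pseudopods, where U87 had 113, 115 and 451. The change between fractions was 2.01 (SE 0.38, adjusted p = 0.0195). For NFE2L3 the difference was -4.49 in cell bodies and -3.09 in pseudopods, a change of -1.39 (SE 0.29, adjusted p = 0.0419). U87 was near background for NFE2L3 in both fractions (2.4, 17.7 and 9.7 in pseudopods), while the other lines had 308 to 1022 in cell bodies and 76.5 to 455 in pseudopods.

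**Figure D5:**
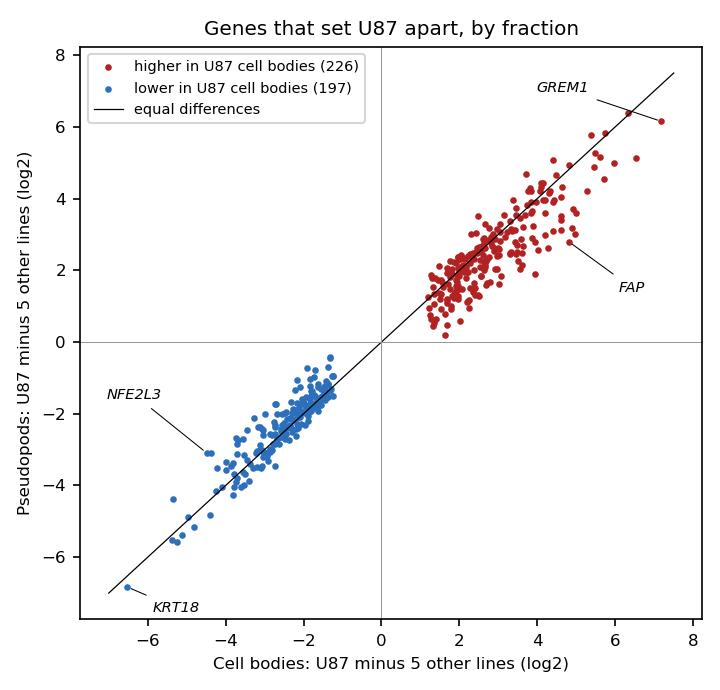
Each point is 1 of the 423 genes that set U87 apart in cell bodies, higher ones in red and lower ones in blue, placed by the difference of U87 from the mean of the 5 other lines in cell bodies (x axis) and pseudopods (y axis), both on the log2(intensity + 16) scale. All points keep their sign, and FAP and NFE2L3 lie off the line of equal differences.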

How the data were processed

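Gene expression was measured on Affymetrix HG-U133 Plus 2.0 arrays, from 100 ng of RNA with 2 rounds of labelling per the labels' protocols. The authors deposited linear intensity values, 0 to 9883.2, with the trimmed mean (2% off each end) of every cell body array between 149.354 and 149.595. RMA and Partek are named in the submitters' processing notes without a version or role, and no source used here says which program made the intensities. Depth has no meaning for arrays, and their number limits the precision.

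From these intensities, log2(intensity + 16) was computed (the deposited values are not log2). Of 54593 probe sets, 41074 had 1 gene symbol, 1798 several and 11721 none; 41020 symbols were updated through RefSeq. A gene is its probe set with the highest mean (19775 genes), tested where the highest line mean reached 24.4, the median of all values (15136 genes). limma 3.58.1 in R 4.3.3 was fitted to 6 line means of the 18 cell body arrays with 12 residual degrees of freedom, called at Benjamini-Hochberg adjusted p under 0.05. Adjusted p in the text are from limma over all 15136 genes. The fit on 6 line means had 4 residual degrees of freedom. Figures used Python 3.11.15 and matplotlib 3.10.9.

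Named were the 12 greatest rises and falls among called genes whose U87 arrays did not overlap the others, the 12 of each farthest from the nearest line, up to 5 such members of each of 35 lists, and 25 tested genes fixed by name (144 in all). Other list members in the text, and the ZNF group, were picked once their values were known. The genes and lists were chosen with earlier results of these data known. Of 798 listed members, 79 had no match and were not analysed here. On simulated data for the contrast with 5 lines, with 200 of 15136 genes changed, 42.5% of 1.5-fold, 90% of 2-fold and 100% of 4-fold changes were recovered with 12 false calls. The simulated noise was independent between arrays, with 1 SD per gene for all lines. In the data the SD within lines ran from 0.22 (HT1080) to 0.41 (MDA231) and far more genes were called. These figures are therefore not error rates of the real comparison. Alternatives covered pseudocount, filter, scaling, probe set choice, array weights, intensity trend, fit on all 36 arrays, replicate block, lines left out, medium, lines as units, pseudopods and single arrays left out.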

Additional observations from a re-analysis of the deposited data

Results flagged for a closer look

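Among the genes named in the report, 2 gave a difference of U87 from the other lines that changed between cell bodies and pseudopods by a test of that change itself, an interaction term in limma over 36 arrays with adjusted p over 15136 genes. For FAP the change, cell bodies minus pseudopods, was 2.01 on the log2 scale (SE 0.38, adjusted p = 0.0195). FAP had 806, 453 and 1163 in the 3 U87 cell body arrays and 113, 115 and 451 in the 3 U87 pseudopod arrays, and the highest pseudopod array lay just below the lowest cell body array. For NFE2L3 the change was -1.39 (SE 0.29, adjusted p = 0.0419), with U87 near background in both fractions. The 3 pseudopod and 3 cell body arrays with high CDH1 enter both values, and their part in the change was not tested.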

How the results depend on the processing

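With the pseudocount at 1, 351 genes set U87 apart on the lower side, and with 64, 94 did, against 197 at 16, and 82 of the 197 had a U87 mean at or below an intensity of 16. Fewer lines give a looser rule by construction: the genes that set U87 apart were 349 higher and 326 lower without HT1080, 345 and 344 without MDA231 and MDA435, and 513 and 523 against the 2 lines in the same medium. With lines as units, 48 genes were called higher and 17 lower, with 4 residual degrees of freedom. Leaving out 1 array at a time gave 2416 to 3137 genes called higher and 3339 to 4193 lower, and 210 to 253 and 188 to 219 genes that set U87 apart. Without the 3 arrays with high CDH1, an alternative chosen after seeing the data like the list counts without U87 replicate 2 and under other scalings, 211 of the 226 and 160 of the 197 remained. The replicate number as a block gave 2948 higher and 3972 lower calls and 226 and 197 genes that set U87 apart. The deviations of same-numbered arrays correlated between -0.35 and 0.36 over 45 pairs, against -0.42 to 0.45 over 90 pairs of different numbers. Such wide ranges cannot tell whether same-numbered arrays shared a day or batch, and the labels do not say.

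Over the 144 named genes and all alternatives, 5522 values kept direction and call, 166 lost the call, 10 gained it and 25 changed sign. Of the 166, 117 were lost with lines as units, where 27 of the 144 genes kept direction and call. NES, which was not called, changed sign with pseudocount 64 (-0.32), the mean of probe sets (-0.21), without HT1080 (-0.76), DU145 (-0.34) or MDA231 (-0.29), in the same medium (-0.14), in pseudopods (-0.56), without the 3 arrays with high CDH1 (-0.22) and on leaving out single arrays (-0.20 to -0.001). OLIG2 changed sign with pseudocount 1 (0.072), without MDA435 (0.50), without MDA231 and MDA435 (0.54) and in the same medium (0.44). EGFR did without DU145 (0.12), without MDA231 (0.13) and in the same medium (0.20), CDH2 in the same medium (-0.71), ACTB after quantile normalization (-0.084), MDM2 without marked probe sets (0.29) and RPL36 in pseudopods (0.21). The cause was not tested.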
